A study of Mus musculus with 12 samples.

Results

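The replicative helicase and its companion factors were followed in lung tumors of mice that express human cyclin E, as 15 probe sets of 9 genes out of the 45037 probe sets other than controls on the array. The genes were chosen by name as the 6 subunits of the MCM helicase (Mcm2, Mcm3, Mcm4, Mcm5, Mcm6 and Mcm7, 10 probe sets), the sliding clamp Pcna (1 probe set) and both subunits of ribonucleotide reductase, Rrm1 and Rrm2 (2 probe sets each). Total RNA of 12 male FVB mouse lung tissues aged 7 to 11 months was hybridised to Affymetrix arrays, with 4 arrays for each of 3 groups. Lung tumors, identified by gross pathology as adenocarcinomas, and adjacent normal lung both came from transgenic mice in which the human surfactant protein C promoter drives wild-type human cyclin E, and normal lung of nontransgenic FVB mice served as the third group. Surfactant protein C is made by alveolar type II cells, so the transgene is aimed at that cell type, while every array measured whole tissue. In such bulk tissue, fewer cells of a type and less RNA per cell cannot be told apart. The cell type markers of lung were not analysed here, so the labelled tissue was not checked against them.

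Before S phase, the 6 MCM subunits are loaded as a ring around DNA at replication origins, a step known as licensing, and the ring later unwinds the DNA ahead of the replication fork. Pcna encircles DNA behind the fork and holds the DNA polymerases on it, and ribonucleotide reductase makes the deoxynucleotides, with Rrm1 as the large catalytic subunit and Rrm2 as the small subunit whose amount peaks in S phase. Cyclin E, the product of the transgene, binds CDK2 and promotes origin licensing and entry into S phase, and transcription of many replication genes is known to depend on E2F factors in the same part of the cell cycle. In resting lung most cells do not replicate their DNA.

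Promoter sequence of some of the genes is shown because E2F sites are the best known shared feature of replication genes. RefSeq windows of 300 bases, 250 before and 50 after the annotated start (GRCm38.p6), were matched for 8 of the 9 genes, with 2 windows for Mcm7, and Mcm4 had no entry. The windows of Mcm2, Rrm1 and the second start of Mcm7, which held no E2F word, are not printed. The E2F words TTTCCCGC, TTTCGCGC, TTTGCCGC and TTTGGCGC were searched on both strands, together with the word CCAAT, which is bound by the factor NF-Y. In the sequences, capitals mark matches, and a match on the opposite strand appears as its reverse complement. For the E2F words found this is GCGGGAAA, GCGCCAAA or GCGCGAAA, and for CCAAT it is ATTGG.
Mcm5, chr8:75109259-75109558, plus strand: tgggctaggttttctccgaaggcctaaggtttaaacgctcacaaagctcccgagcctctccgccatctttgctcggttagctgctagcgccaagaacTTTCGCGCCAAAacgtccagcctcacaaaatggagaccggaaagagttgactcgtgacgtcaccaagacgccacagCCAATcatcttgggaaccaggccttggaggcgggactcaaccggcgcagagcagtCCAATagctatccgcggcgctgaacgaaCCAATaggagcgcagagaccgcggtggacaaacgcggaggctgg
Mcm6, chr1:128359656-128359955, minus strand: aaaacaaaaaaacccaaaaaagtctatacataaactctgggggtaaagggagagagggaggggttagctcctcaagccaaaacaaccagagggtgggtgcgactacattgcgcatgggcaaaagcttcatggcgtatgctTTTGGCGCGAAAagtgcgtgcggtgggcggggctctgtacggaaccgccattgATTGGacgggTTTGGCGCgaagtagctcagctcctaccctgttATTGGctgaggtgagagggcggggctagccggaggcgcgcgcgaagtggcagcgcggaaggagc
Mcm7, chr5:138171834-138172133, minus strand: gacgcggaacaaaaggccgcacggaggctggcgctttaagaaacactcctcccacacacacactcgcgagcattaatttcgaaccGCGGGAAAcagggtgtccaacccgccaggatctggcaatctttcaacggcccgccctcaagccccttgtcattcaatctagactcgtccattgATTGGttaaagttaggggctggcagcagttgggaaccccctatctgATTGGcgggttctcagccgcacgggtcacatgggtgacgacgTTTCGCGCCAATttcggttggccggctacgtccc
Mcm3, chr1:20820263-20820562, minus strand: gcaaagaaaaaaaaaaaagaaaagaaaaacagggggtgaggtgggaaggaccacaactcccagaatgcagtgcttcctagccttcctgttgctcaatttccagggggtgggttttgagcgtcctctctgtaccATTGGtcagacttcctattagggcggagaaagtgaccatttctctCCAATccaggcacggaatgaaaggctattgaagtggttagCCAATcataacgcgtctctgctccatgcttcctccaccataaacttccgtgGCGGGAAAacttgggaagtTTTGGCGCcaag
Pcna, chr2:132253131-132253430, minus strand: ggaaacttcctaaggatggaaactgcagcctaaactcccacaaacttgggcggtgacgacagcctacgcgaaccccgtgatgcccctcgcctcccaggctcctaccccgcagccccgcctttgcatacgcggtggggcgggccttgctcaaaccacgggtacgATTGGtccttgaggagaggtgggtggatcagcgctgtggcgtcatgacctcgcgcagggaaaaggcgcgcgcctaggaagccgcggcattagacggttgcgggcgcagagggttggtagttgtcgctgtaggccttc
Rrm2, chr12:24708004-24708303, plus strand: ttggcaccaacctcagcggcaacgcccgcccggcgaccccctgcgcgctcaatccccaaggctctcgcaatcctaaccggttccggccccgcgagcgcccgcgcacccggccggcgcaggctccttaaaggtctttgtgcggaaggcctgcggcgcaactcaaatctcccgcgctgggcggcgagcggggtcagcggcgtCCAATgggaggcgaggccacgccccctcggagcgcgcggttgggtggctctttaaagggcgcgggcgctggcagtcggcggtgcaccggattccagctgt

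An E2F word was present in the windows of 4 genes, Mcm3, Mcm5, Mcm6 and Mcm7, whereas 2.26% of all 32851 promoter windows of this length held one. In Mcm5 and Mcm6, 2 E2F words on opposite strands overlap in a single run of capitals, upstream of the start. Mcm6 has another E2F word nearer the start, Mcm7 has one on either side of it, and both words of Mcm3 lie after it. In Mcm7 the word after the start shares a base with a CCAAT word. CCAAT was present in all 9 windows, including those of Pcna, Rrm1, Rrm2, Mcm2 and the second start of Mcm7, which held no E2F word, and in 37.4% of all windows. A match describes the letters only, and no binding was measured.

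**Figure D1:**
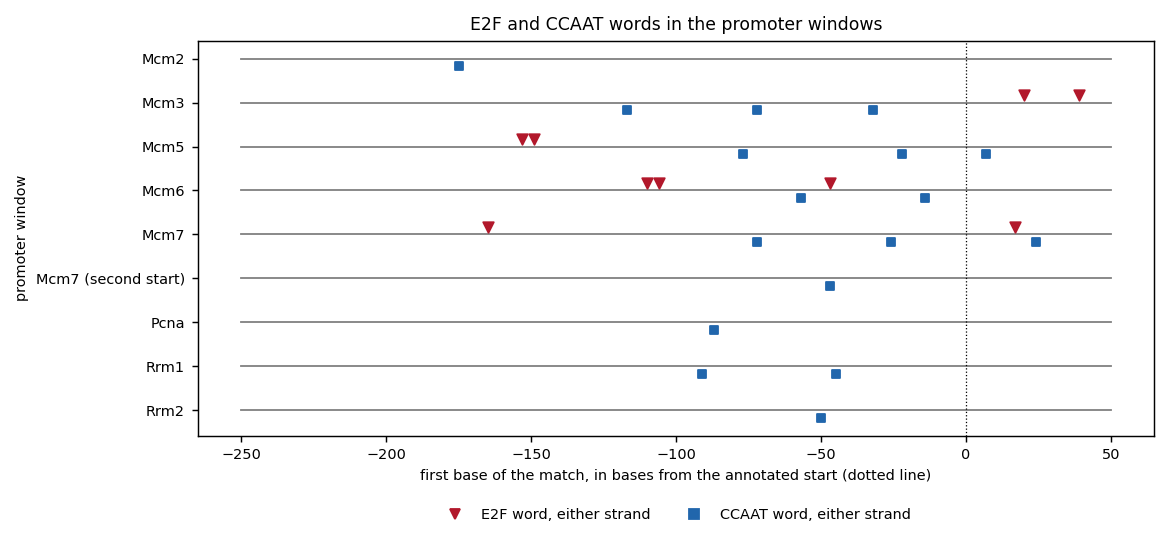
Positions of the E2F words (triangles) and CCAAT words (squares) in the 9 promoter windows, on the x axis in bases from the annotated start (dotted line), with 1 row per window. E2F words fall in 4 of the 9 windows and CCAAT in all 9.

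One tumor array stood apart from the others over all probe sets tested. The replication factor probe sets are among those tested, and they were chosen with earlier results of these data known. The distances below are therefore not independent of the set. Tumor 2 lay at a mean Euclidean distance of 154 from the other tumors over all probe sets, against 96.7 to 103 for tumors 1, 3 and 4, and at a distance of 112 from the 8 lungs, against 169 to 177 for tumors 1, 3 and 4. Adjacent normal lung 3 lay at 105 from its own group, against 66.2 to 69.8 for the other adjacent normal lungs. The 3′ minus 5′ signal of control transcripts, a measure of RNA integrity, was highest in tumor 2 at 0.61 (log2), against 0.30 to 0.57 in the other 11 arrays. The counts of calls for the tumors are therefore also given without tumor 2, and the part of RNA integrity in the results was not tested. By the labels, a tumor and the adjacent normal lung with its number are likely from 1 mouse, while the methods speak of independent samples.

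Compared with adjacent normal lung, the tumors had a higher signal of most replication factor probe sets. Of the 15 probe sets, 11 rose at an adjusted p under 0.05, against 13.2% of all 23538 probe sets tested, and none fell. Over the 15, the median log2 difference was 1.11 (2.16-fold), against 0.07 over all probe sets tested. The 11 belonged to 7 of the 9 genes, and 8 of them rose at least 2-fold, against 3.9% of all probe sets tested. The 4 that did not pass were 1 of the 2 probe sets of Mcm2, the single probe sets of Mcm3 and Pcna, and 1 of the 2 probe sets of Rrm1. All 15 probe sets were above the filter on low signal, which asks for at least 4 arrays above the median of the table (4.18). The Rrm2 probe set 1448226_AT exceeded that median in 3 tumors, 1 adjacent normal lung and 1 nontransgenic lung, so it passed only through the tumors. Its test is not independent of the filter, and its call is counted in the 11, the 8 and the counts below. With no filter, 11 of the 15 rose as well, against 6.91% of 45037 probe sets.

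**Figure D2:**
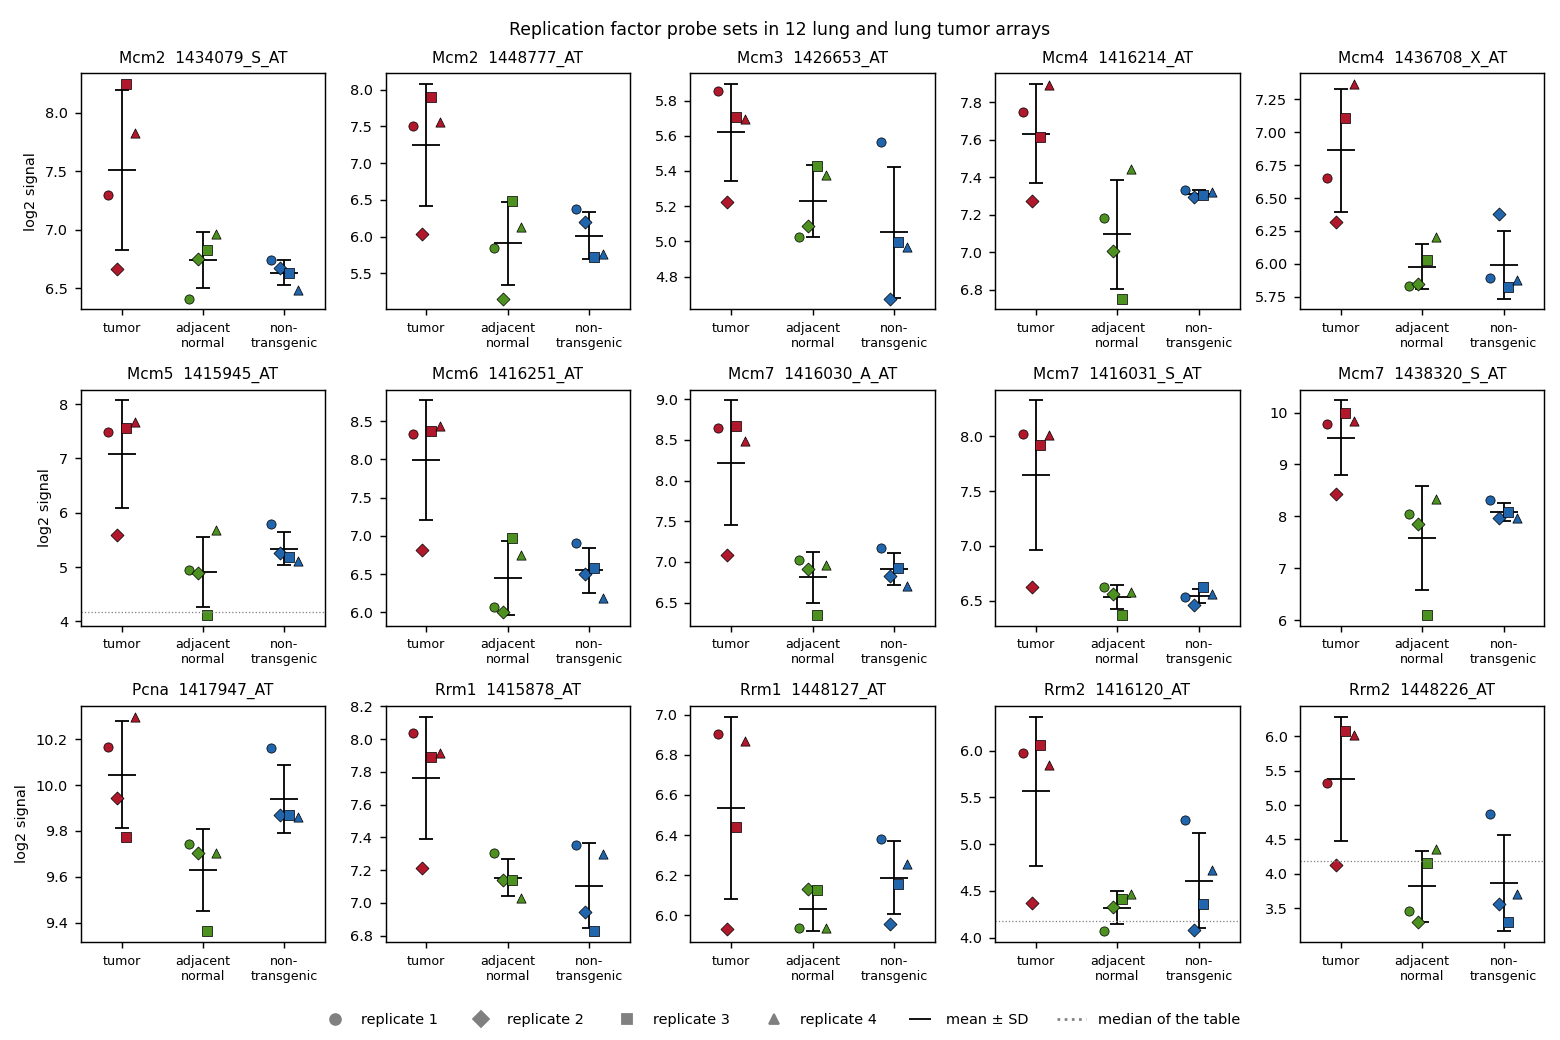
Log2 signal (y axis, scaled separately in each panel and not starting at 0) of the 15 probe sets in tumors, adjacent normal lungs and nontransgenic lungs (4 arrays each), with symbols for the replicate numbers and bars for the mean ± SD. Tumor 2, the diamond in the first column of each panel, is the lowest tumor in 14 of the 15 panels.

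The call count depended on single arrays in both directions. Without tumor 2, 15 of the 15 probe sets rose against adjacent normal lung, where 23% of all probe sets tested did, and 10 of them at least 2-fold, against 7.03%. Without tumor 1 or tumor 3 the count was 7 (8.34% and 6.95% of all probe sets tested), without tumor 4 or adjacent normal lung 1 it was 6 (7.24% and 7.6%) and without adjacent normal lung 2 it was 7 (8.54%), so the calls over all probe sets fell as well. The same 6 probe sets were called whichever single array of the 12 was left out, those of Mcm5 and Mcm6, all 3 of Mcm7 and Mcm4 at 1436708_X_AT. The call of Mcm2 at 1448777_AT held in 7 of the 12 such fits, those of Rrm2 in 8 each, that of Mcm4 at 1416214_AT in 6 and that of Rrm1 at 1415878_AT in 5. With the replicate number as a block in a fit of the 8 tumor and adjacent normal arrays, 5 probe sets rose, 1 each of Mcm2 (1448777_AT), Mcm4 (1436708_X_AT) and Rrm2 (1448226_AT) and those of Mcm5 and Mcm6, against 4.28% of all probe sets tested. In 13 of the 15 probe sets the tumor was higher than its same-numbered lung in all 4 pairs, as it was in 22.5% of all probe sets tested, and in the other two, of Mcm2 (1434079_S_AT) and Rrm1 (1448127_AT), in 3 of the 4.

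Mcm5, a subunit at the gate through which the MCM ring opens onto DNA, had the largest difference of the 15. Its log2 signal was 7.48, 5.60, 7.56 and 7.67 in tumors 1 to 4, against 4.95, 4.89, 4.12 and 5.69 in adjacent normal lungs 1 to 4 and 5.80, 5.26, 5.20 and 5.11 in nontransgenic lungs 1 to 4. Tumors 1, 3 and 4 lay above all 8 lungs, whereas tumor 2 lay below adjacent normal lung 4 and nontransgenic lung 1. The difference between tumor and adjacent normal lung was 2.17 ± 0.44 (log2, SE), or 4.50-fold (adjusted p = 0.0042), and 2.66 without tumor 2. Against nontransgenic lung it was 1.74 ± 0.44 (3.34-fold, adjusted p = 0.011). The promoter of this gene holds the overlapping pair of E2F words printed above, but a link between such words and the size of a difference was not tested. The windows of Mcm2, Rrm1, Rrm2 and Pcna held none, and of these genes only Pcna had no call against adjacent normal lung.

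Mcm6, part of the catalytic core of the helicase with Mcm4 and Mcm7, showed the same arrangement of arrays. Its log2 signal was 8.33, 6.82, 8.38 and 8.44 in tumors 1 to 4, against 6.06, 6.01, 6.97 and 6.75 in adjacent normal lungs and 6.91, 6.50, 6.59 and 6.19 in nontransgenic lungs. Tumors 1, 3 and 4 were close to each other and clear of every lung, and tumor 2 lay among the lungs. Mcm6 rose by 1.54 ± 0.35 (2.91-fold, adjusted p = 0.0080) against adjacent normal lung and by 1.44 ± 0.35 (2.72-fold, adjusted p = 0.0097) against nontransgenic lung.

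Mcm7 was read by 3 probe sets, and all of them rose. Probe set 1438320_S_AT had 9.79, 8.44, 9.99 and 9.84 in tumors 1 to 4, against 8.05, 7.85, 6.10 and 8.34 in adjacent normal lungs and 8.32, 7.97, 8.08 and 7.96 in nontransgenic lungs. It was the only one of the 15 with all 4 tumors above all 8 lungs, a share near the 6.98% of all probe sets tested, and tumor 2 exceeded the highest lung by little. Its difference from adjacent normal lung, 1.93 ± 0.45 (3.81-fold, adjusted p = 0.0088), rested in part on the low value of adjacent normal lung 3, and was 1.44 ± 0.32 (adjusted p = 0.0095) without that array. Probe set 1416030_A_AT had 8.64, 7.08, 8.67 and 8.49 in tumors, against 7.03, 6.92, 6.35 and 6.96 in adjacent normal lungs and 7.17, 6.83, 6.92 and 6.71 in nontransgenic lungs. Here tumor 2 was above all adjacent normal lungs and below nontransgenic lung 1. Probe set 1416031_S_AT had 8.03, 6.62, 7.92 and 8.01 in tumors, against 6.63, 6.56, 6.37 and 6.58 in adjacent normal lungs and 6.53, 6.46, 6.62 and 6.56 in nontransgenic lungs. The differences from adjacent normal lung were 1.41 ± 0.31 (2.66-fold) and 1.11 ± 0.26 (2.16-fold) at 1416030_A_AT and 1416031_S_AT, with adjusted p of 0.0069 and 0.0092. Against nontransgenic lung the 3 probe sets rose by 1.43 (1438320_S_AT), 1.31 (1416030_A_AT) and 1.10 (1416031_S_AT) on the log2 scale, with limma adjusted p of 0.031, 0.0086 and 0.0085. The call of 1438320_S_AT against nontransgenic lung held in 6 of the 12 fits that left out 1 array. With the replicate number as a block in the limma fit of 8 arrays, none of the 3 passed against adjacent normal lung (adjusted p = 0.063, 0.053 and 0.057 in the same order).

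Mcm2, the subunit opposite Mcm5 at the gate of the ring, had 7.50, 6.04, 7.90 and 7.56 in tumors at probe set 1448777_AT, against 5.85, 5.16, 6.49 and 6.14 in adjacent normal lungs and 6.37, 6.19, 5.72 and 5.77 in nontransgenic lungs. It rose by 1.34 ± 0.38 (2.53-fold, adjusted p = 0.022) against adjacent normal lung and by 1.24 ± 0.38 (2.35-fold, adjusted p = 0.028) against nontransgenic lung. The other probe set of Mcm2, 1434079_S_AT, had 7.30, 6.66, 8.25 and 7.83 in tumors, against 6.41, 6.75, 6.83 and 6.97 in adjacent normal lungs and 6.75, 6.67, 6.63 and 6.49 in nontransgenic lungs. With tumor 2 below 3 of the 4 adjacent normal lungs, the difference of 0.77 ± 0.28 from adjacent normal lung did not pass (adjusted p = 0.055), while that of 0.87 ± 0.28 from nontransgenic lung did (adjusted p = 0.030). Mcm2 is thus called against both kinds of lung at 1448777_AT and against nontransgenic lung alone at 1434079_S_AT, and whether the 2 probe sets differed in response is tested below.

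Mcm4, another core subunit, was read by 2 probe sets. At 1436708_X_AT its log2 signal was 6.65, 6.32, 7.11 and 7.37 in tumors, against 5.83, 5.85, 6.03 and 6.20 in adjacent normal lungs and 5.89, 6.38, 5.82 and 5.88 in nontransgenic lungs. All 4 tumors lay above all 4 adjacent normal lungs here, and nontransgenic lung 2 lay above tumor 2. This probe set rose by 0.89 ± 0.22 (1.85-fold, adjusted p = 0.011) against adjacent normal lung and by 0.87 ± 0.22 (1.83-fold, adjusted p = 0.011) against nontransgenic lung. At 1416214_AT the tumors had 7.75, 7.27, 7.62 and 7.89, against 7.18, 7.00, 6.75 and 7.44 in adjacent normal lungs and 7.29 to 7.33 in nontransgenic lungs. It rose by 0.54 ± 0.17 (1.45-fold, adjusted p = 0.032) against adjacent normal lung, whereas the 0.32 ± 0.17 against nontransgenic lung did not pass (adjusted p = 0.16). Without adjacent normal lung 3, the lowest of its group, the difference from adjacent normal lung was 0.42 ± 0.16 (adjusted p = 0.072).

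Mcm3, the partner of Mcm5 in the ring, had the smallest difference from adjacent normal lung. Its log2 signal was 5.85, 5.22, 5.71 and 5.70 in tumors, against 5.02, 5.09, 5.43 and 5.38 in adjacent normal lungs and 5.57, 4.67, 5.00 and 4.97 in nontransgenic lungs. The 0.39 ± 0.20 against adjacent normal lung did not pass (1.31-fold, adjusted p = 0.17), and the 0.57 ± 0.20 against nontransgenic lung passed narrowly (1.48-fold, adjusted p = 0.049). Tumors 1, 3 and 4 were nevertheless above all 8 lungs. Its promoter holds E2F words, as do those of Mcm5, Mcm6 and Mcm7, whose measured differences were larger.

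Pcna did not pass against either kind of lung, and its difference from nontransgenic lung was the smallest of the 15. Its log2 signal was 10.17, 9.95, 9.77 and 10.30 in tumors, against 9.74, 9.71, 9.36 and 9.70 in adjacent normal lungs and 10.16, 9.87, 9.87 and 9.86 in nontransgenic lungs. All 4 tumors were above the 4 adjacent normal lungs, as in 4 of the 15 probe sets (2 of Mcm7 and 1 of Mcm4 besides) and in 10.4% of all probe sets tested, but only tumors 1 and 4 were above all 4 nontransgenic lungs. The difference from adjacent normal lung was 0.42 ± 0.15 (1.33-fold, adjusted p = 0.054) and that from nontransgenic lung 0.11 ± 0.15 (adjusted p = 0.62), with a 95% interval from -0.22 to 0.43. Neither passed, and the second did not pass without tumor 2 either (adjusted p = 0.50).

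Rrm2 rose in the tumors at both probe sets against adjacent normal lung. At 1416120_AT its log2 signal was 5.97, 4.37, 6.06 and 5.85 in tumors, against 4.07, 4.32, 4.42 and 4.46 in adjacent normal lungs and 5.26, 4.08, 4.36 and 4.72 in nontransgenic lungs. At 1448226_AT it was 5.32, 4.13, 6.08 and 6.02 in tumors, against 3.46, 3.30, 4.16 and 4.35 in adjacent normal lungs and 4.88, 3.56, 3.29 and 3.71 in nontransgenic lungs. Most lungs and tumor 2 were close to or under the median of the table (4.18), and the part of the background correction in the size of the difference at this end of the scale was not tested. The difference from adjacent normal lung was 1.25 ± 0.35 (2.37-fold, adjusted p = 0.021) at 1416120_AT and 1.56 ± 0.45 (2.96-fold, adjusted p = 0.023) at 1448226_AT. Against nontransgenic lung the second, which passed the filter only through the tumors, rose by 1.53 ± 0.45 (2.88-fold, limma adjusted p = 0.024). The first, at 0.96 ± 0.35, did not pass (limma adjusted p = 0.056). It passed without nontransgenic lung 1 (1.18 ± 0.36, limma adjusted p = 0.034), which had the highest Rrm2 signal of the 8 lungs at both probe sets. Of the 12 fits that left out 1 array, the first passed in 2 against nontransgenic lung and the second in 7.

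Rrm1, which is present through much of the cell cycle, had smaller measured differences than Rrm2, a contrast that was not tested. At 1415878_AT its log2 signal was 8.04, 7.21, 7.89 and 7.91 in tumors, against 7.30, 7.14, 7.14 and 7.03 in adjacent normal lungs and 7.35, 6.94, 6.83 and 7.30 in nontransgenic lungs. This probe set rose by 0.61 ± 0.19 (1.53-fold, adjusted p = 0.032) against adjacent normal lung and by 0.66 ± 0.19 (1.58-fold, adjusted p = 0.021) against nontransgenic lung. At 1448127_AT tumor 2 (5.93) was as low as the lowest lungs, and tumors 1, 3 and 4 had 6.90, 6.44 and 6.87, against 5.93 to 6.13 in adjacent normal lungs and 5.95 to 6.38 in nontransgenic lungs. The differences of 0.51 ± 0.20 and 0.35 ± 0.20 did not pass (adjusted p = 0.077 against adjacent normal lung and 0.20 against nontransgenic lung).

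Compared with nontransgenic lung, the tumors had a higher signal of 11 of the 15 probe sets, against 15.6% of all probe sets tested, and none fell. The 11 belonged to 8 of the 9 genes, Pcna being the exception, and the median log2 difference over the 15 was 0.96, against 0.07 over all probe sets tested. At least 2-fold higher were 7 of the 15, against 4.52% of all probe sets tested. Rrm2 at 1448226_AT, which passed the filter only through the tumors, is counted in the 11 and the 7. With no filter, 10 of the 15 rose, against 8.93% of 45037 probe sets. Both comparisons share the 4 tumor arrays, so they are not independent. All 4 tumors lay above all 4 nontransgenic lungs in 2 of the 15 probe sets, both of Mcm7, a share near the 13.3% of all probe sets tested. Without tumor 2 the count of calls was 14 of 15 (24.3% of all probe sets tested), 10 of them at least 2-fold higher (7.32%). Without tumor 1 it was 7 (10.4% of all probe sets tested), without tumor 3, tumor 4 or nontransgenic lung 3 it was 5 (9.31%, 9.89% and 10.8%), and without nontransgenic lung 2 or 4 it was 6 (11.2% and 10.6%). The 5 probe sets called whichever array was left out were those of Mcm5, Mcm6, Mcm7 (1416030_A_AT and 1416031_S_AT) and Mcm4 (1436708_X_AT). The call of Mcm3 held in 3 of the 12 such fits.

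Adjacent normal lung, which carries the transgene, did not differ detectably from nontransgenic lung in these genes. None of the 15 probe sets passed, at an adjusted p or at an unadjusted p under 0.05 in limma, and over all probe sets tested 0% passed after adjustment and 3.55% before it. The log2 differences ran between -0.50 and 0.18, with a median of -0.10 against 0.01 over all probe sets tested. Their 95% intervals reached as low as -1.49 and as high as 0.95, at the Mcm7 probe set 1438320_S_AT and the Rrm2 probe set 1448226_AT, and were narrower elsewhere. Pcna had the smallest unadjusted p (0.058), with 9.74, 9.71, 9.36 and 9.70 in adjacent normal lungs and 10.16, 9.87, 9.87 and 9.86 in nontransgenic lungs. The 2 groups did not overlap for Pcna, the only 1 of the 15 probe sets of which this held, a share near the 4.78% of all probe sets tested. The Pcna difference was -0.31 ± 0.15 with an interval from -0.64 to 0.01. Mcm5 (-0.43 ± 0.44) and the Mcm7 probe set 1438320_S_AT (-0.50 ± 0.45) had larger differences with wider errors, and in both adjacent normal lung 3 was the lowest of the 12 arrays.

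**Figure D3:**
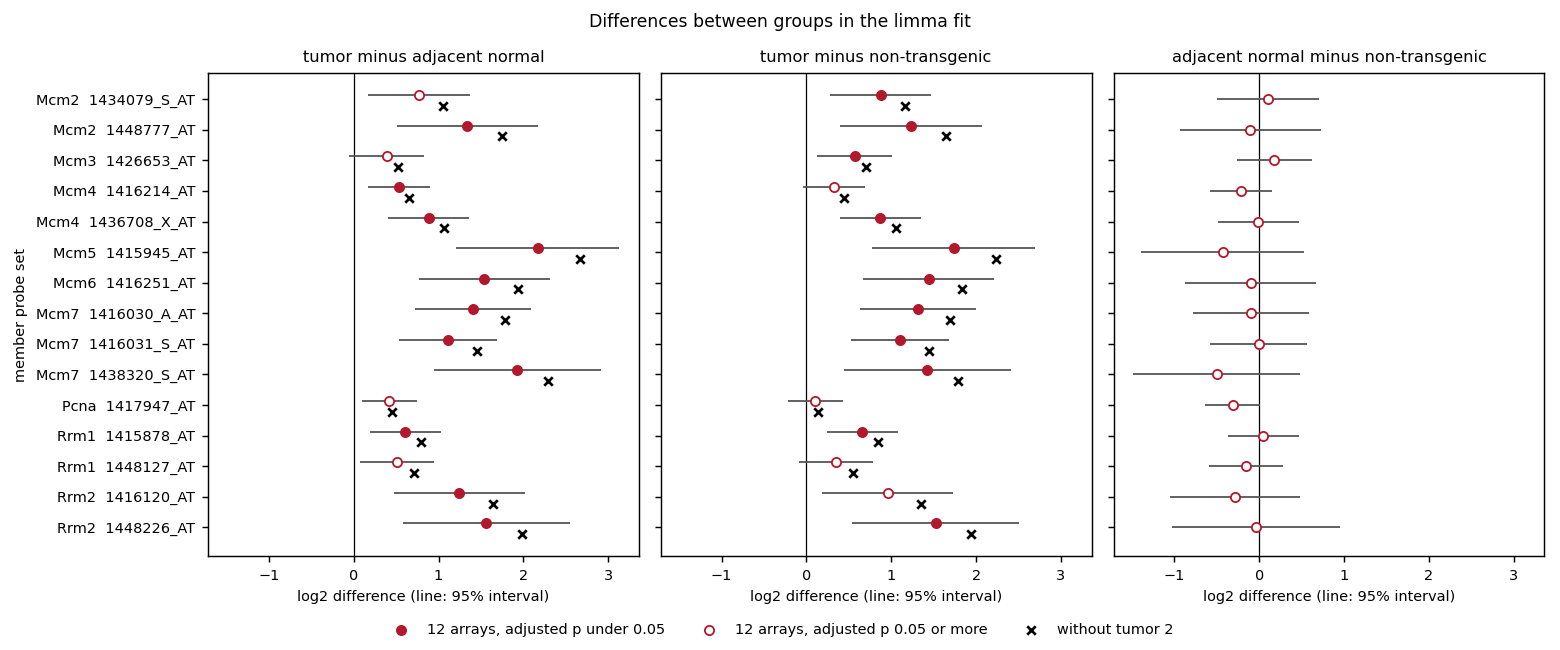
Log2 differences of the 15 probe sets for tumor minus adjacent normal, tumor minus nontransgenic and adjacent normal minus nontransgenic lung (x axis), with 95% intervals from the limma fit of 12 arrays, filled where the adjusted p is under 0.05, and crosses for the difference without tumor 2. Filled points number 11, 11 and 0, and the crosses lie to the right of the points in both tumor comparisons.

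The high values of the set came from tumors 1, 3 and 4. In 14 of the 15 probe sets, Pcna being the exception, all 3 lay above all 8 lungs, which held for 21.7% of all probe sets tested. Tumor 2 lay inside the range of the lungs in 13 of the 15, against 54.6% of all probe sets tested, and in 12 of the 14, against 58.1% of the probe sets with the same arrangement of tumors 1, 3 and 4. It was the lowest tumor in 14 of the 15, against 40.2% of all probe sets tested. As a percentage of the way from the adjacent normal mean to the mean of tumors 1, 3 and 4, tumor 2 stood at 25.8% for Mcm5, 19.1% for Mcm6, 14.97% for Mcm7 at 1416030_A_AT, 7.31% for Mcm2 at 1448777_AT, 3.37% for Rrm2 at 1416120_AT and -1.64% for Mcm3. The highest position was that of Pcna at 70.4% and the lowest that of Rrm1 at 1448127_AT, at -13.7%. The SD over the 4 tumors had a median of 0.68 in the 15 probe sets, against 0.31 over all probe sets tested, and over tumors 1, 3 and 4 it was 0.11, against 0.20. In 6 of the 15 the SD over tumors 1, 3 and 4 was above that 0.20, with the largest at Mcm2 (1434079_S_AT, 0.48), Rrm2 (1448226_AT, 0.42) and Mcm4 (1436708_X_AT, 0.36). In adjacent normal and nontransgenic lungs the median SD was 0.24 and 0.26, against 0.22 and 0.19 over all probe sets tested. The share of tumor cells in each piece of tissue was not measured, and its part in the low values of tumor 2 was not tested.

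**Figure D4:**
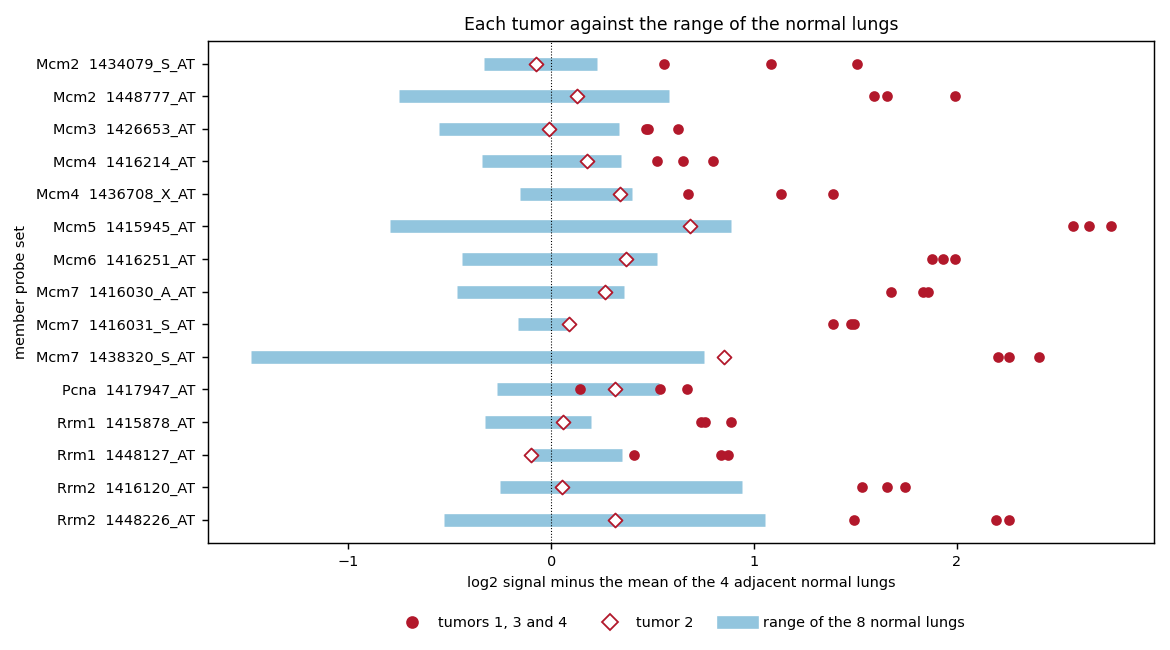
Log2 signal of each tumor minus the mean of the 4 adjacent normal lungs (x axis) for the 15 probe sets, with tumors 1, 3 and 4 as filled circles, tumor 2 as an open diamond and the range of the 8 lungs as a bar. Tumors 1, 3 and 4 lie to the right of the bar in 14 rows, and tumor 2 lies within the bar in 13.

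Among the reference lungs, nontransgenic lung 1 was the highest of its group in 13 of the 15 probe sets, against 25.3% of all probe sets tested. Its Rrm2 signal of 5.26 at 1416120_AT and 4.88 at 1448226_AT stood above the 4.72 and 3.71 of the next highest nontransgenic lung. Adjacent normal lung 3, which stood apart over all probe sets tested, was the lowest of its group in 6 of the 15 and the highest in 3, against 30.2% and 39% of them. Across the 3 groups together, 10 of the 15 probe sets passed a moderated F-test, against 28.6% of all probe sets tested.

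Probe sets of 1 gene gave differences of unequal size. Between tumor and adjacent normal lung, the response at Mcm7 was larger by 0.30 at 1416030_A_AT than at 1416031_S_AT, and smaller by 0.82 at 1416031_S_AT than at 1438320_S_AT (difference of -0.82). Both pairs reached the smallest p that an exact two-sided permutation test of 4 against 4 arrays can give, 0.029, and neither passed after adjustment over the 7 pairs compared (adjusted p = 0.10). The third pair of Mcm7, 1416030_A_AT against 1438320_S_AT, differed by -0.52 (exact permutation p = 0.14, adjusted p = 0.20). These gaps rested in part on adjacent normal lung 3. Without it, the differences from adjacent normal lung were 1.44 at 1438320_S_AT, 1.25 at 1416030_A_AT and 1.06 at 1416031_S_AT, which lie closer together. The pairs were not tested without that array. For Mcm2 the difference between 1434079_S_AT and 1448777_AT was -0.57 and for Mcm4 that between 1416214_AT and 1436708_X_AT was -0.35 (exact permutation p = 0.14 and adjusted p = 0.20 for each). For Rrm1 and Rrm2 the differences were 0.10 and -0.32 (exact permutation, adjusted p = 0.40 and 0.33). Letters in the identifiers mark probe sets that can read several transcripts (S), alternative transcripts of 1 gene (A) or similar sequences of other genes (X), and of the 10 probe sets without such a mark, 7 rose against adjacent normal lung and 6 against nontransgenic lung.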

How the data were processed

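Gene expression was measured on 12 Affymetrix arrays, 4 per group, which were grouped and numbered by their labels. For each array, the authors deposited a table of log2 signals that were already background corrected and normalized between arrays. RMA is named in the methods and GCRMA (no version) in the submitters' processing notes, and the genome build of the annotation is not given in the sources used here. The table used here holds no detection calls, and the number of arrays limits the precision. The 15 probe sets and their gene names were chosen with earlier results of these data known, and the names were not checked against an annotation here. Because no table pairing probe sets with genes was used here, the lists of other replication genes and of cell type markers, and probe sets of like pattern, were not analysed.

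Probe sets above the median of the table (4.18) in at least 4 arrays were kept (23538 of 45037 other than controls, 64 controls left out). The 3 groups were fitted together with limma 3.58.1 (lmFit and eBayes, R 4.3.3), and p-values were adjusted by Benjamini-Hochberg over all probe sets tested, with a threshold of 0.05. All 15 probe sets are named. Exact permutation tests were run in scipy 1.17.1. The fit was tested on simulated data. No array was an exact copy of another (highest correlation 0.994). The arrays are described as separate tissues, and the labels imply 1 mouse for the tumor and lung that share a number. Over all probe sets tested, the correlation of a tumor's deviation from its group mean with that of the same-numbered lung was -0.03, 0.10, 0.07 and 0.11 for numbers 1, 2, 3 and 4, and it was the highest with its own number for 1 tumor. Alternatives were other filters, normalizations, variance models, blocks and leaving out each array.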

Additional observations from a re-analysis of the deposited data

Results flagged for a closer look

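Within each group of 4 arrays, a value was singled out where its gap to the nearest of the others was above Dixon's critical value as a share of the range of the group, which chance gives in about 1 of 20 sets. Of the 45 sets examined, 10 were singled out, and 6 of these were tumor 2 as the lowest tumor. The sets reuse the same arrays, and tumor 2 stood apart over all probe sets tested, so the sets are not independent. The share of such sets over all probe sets tested is not given here. These counts can therefore not be set against a background. Tumor 2 had 5.60 for Mcm5, 6.82 for Mcm6 and 4.37 for Rrm2 (1416120_AT). For Mcm7 it had 7.08 at 1416030_A_AT, 6.62 at 1416031_S_AT and 8.44 at 1438320_S_AT. The other tumors had 7.48 to 7.67 for Mcm5, 8.33 to 8.44 for Mcm6 and 5.85 to 6.06 for Rrm2.

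Adjacent normal lung 3 was lowest of its group at 6.35 for Mcm7 (1416030_A_AT, others 6.92 to 7.03) and at 9.36 for Pcna (others 9.70 to 9.74). Nontransgenic lung 1 was highest of its group at 10.16 for Pcna (others 9.86 to 9.87), and nontransgenic lung 2 was highest at 6.38 for Mcm4 (1436708_X_AT, others 5.82 to 5.89).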

How the results depend on the processing

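No difference between tumor and adjacent normal or nontransgenic lung changed sign in any of the 15 probe sets under any alternative run. Of the 354 values recomputed for tumor against adjacent normal lung, 292 kept their side of the threshold, 46 lost the call and 16 gained it, and of the 339 for tumor against nontransgenic lung these were 277, 52 and 10. Against the 11 calls of tumor over adjacent normal lung, leaving out 1 array gave between 6 and 15, the replicate block over 8 arrays gave 5, probe sets without a mark gave 7 of 10, and a test with unequal variances gave 0 after adjustment (12 at an unadjusted p under 0.05), where 0.595% of all probe sets tested were called higher. The replicate block over all 12 arrays gave 12 (11.5% of all probe sets tested) and the mouse as a random block gave 13 (14.3%). Against the 11 calls over nontransgenic lung, leaving out 1 array gave between 5 and 14. A filter at the 75th percentile gave 7 of 9 tested (15.6% of the 12251 probe sets it kept). Probe sets without a mark gave 6 of 10, and unequal variances gave 0 (8 unadjusted, and 2.06% of all probe sets tested after adjustment). Across the 3 groups, 10 of the 15 passed a moderated F-test (28.6% of all probe sets tested), with 4 to 14 when 1 array was left out, 6 of 9 tested with the 75th percentile filter, 6 in an adjusted analysis of variance and 6 of 10 without a mark. For these alternatives across the 3 groups, and for the unadjusted counts, the shares over all probe sets tested are not given here. Those counts can therefore not be set against a background. Adjacent normal against nontransgenic lung stayed at 0 calls in every setting, but the sign of the difference of 7 probe sets turned under some of them.

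Centring each array on its median moved the median difference of all probe sets tested between tumor and adjacent normal lung to 0.18, against 0.07, and their calls to 4834 higher and 3080 lower, against 3102 higher and 3663 lower. With it 14 of the 15 probe sets rose. Alternatives for the list of other replication genes were not run. The background signal was not analysed here, so how far Rrm2, near the lower end of the scale, stood above it was not tested.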
